A study of Mus musculus with 20 samples.

Results

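The genes described here are markers of mesothelium, the thin epithelial sheet that covers the organs and fat of the body cavities. They were chosen by symbol from a list of 10: Upk3b, Upk1b, Msln, Krt19, Gpm6a, Nkain4, Lrrn4, Pkhd1l1, Muc16 and Bnc1. A probe carried the symbol of 9 of the 10, among 19505 genes measured, and Muc16 had none, so it is not analysed here. No listed gene had more than 1 probe.

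Total RNA was measured on 20 expression arrays of fat cells that, by the labels, came from mouse adipose tissue and were matured in vitro. Of these, 5 arrays each belonged to wild-type sc, Olfm2 knockout sc, wild-type g and Olfm2 knockout g samples, where sc and g are the labels' names for the adipose depot. The sources differ on the gene in sc: the design text of the series sets OLFM2 beside g and PKP2 beside sc. All labels give Olfm2 knockout, and the labels were followed here. Olfm2 encodes the secreted glycoprotein olfactomedin 2; the sources used here give neither the way it was knocked out nor the sex, age or diet of the mice, and the labels do not spell out sc and g. Values are log2 signals, so a difference of 1 is a doubling of signal. Since the labels do not state whether samples of a group came from separate mice or cultures, p-values here weigh differences only against the spread among these arrays, which may be technical.

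Mesothelial cells line the peritoneum and secrete a lubricating fluid layer, and fat pads inside the abdominal cavity carry such a sheet on their surface, whereas fat under the skin lies outside the cavity. The cells combine features of epithelium, such as keratins and apical membrane proteins, with a mesodermal origin, and the transcription factor WT1 marks them and their progenitors. Mesothelin (Msln) is a cell surface glycoprotein that binds the mucin encoded by Muc16. Upk3b and Upk1b encode uroplakins, membrane proteins first known from the bladder lining.

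Olfm2 itself was lower on all 5 knockout than on all 5 wild-type arrays of either depot (-1.66 in sc and -0.80 in g). Array medians lay between 5.78 and 5.92, and the medians of the 5222 negative control probes between 4.45 and 4.84. Olfm2 averaged 4.88 in wild-type sc and 4.34 in wild-type g samples. On all 5 wild-type g arrays it was below the median of that array's control probes, so its drop in g lies within the range of those probes. Although the labels name fat cells, genes of other tissues were high on some arrays, so the samples may hold more than fat cells. Averaged over 15 hepatocyte genes, the signal was above 7 on 8 arrays (g286 WT, g308 WT, every knockout g array but g300 KO, sc300KO and sc318KO), and that of lymphocyte or skeletal muscle genes was above 7 on 4 arrays (sc286WT, sc307WT, sc317KO and sc320KO). Adiponectin (Adipoq) was between 12.0 and 12.8 on all arrays.

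Windows upstream of the start of transcription were on hand in RefSeq (build GRCm38.p6) for 5 of the 10 listed genes. They are shown for 4 of them, because these include the gene with the highest depot difference (Upk3b), a pair with intermediate ones (Gpm6a and Lrrn4) and the gene with the smallest (Bnc1). Each line holds the 250 bases before the start of transcription, 5′ to 3′ in the direction of the gene. Capitals mark matches, on either strand, to GGAATG, the core read by TEAD factors, or to GGGCGG, the GC box.
Upk3b, chr5:136038246-136038495, plus strand: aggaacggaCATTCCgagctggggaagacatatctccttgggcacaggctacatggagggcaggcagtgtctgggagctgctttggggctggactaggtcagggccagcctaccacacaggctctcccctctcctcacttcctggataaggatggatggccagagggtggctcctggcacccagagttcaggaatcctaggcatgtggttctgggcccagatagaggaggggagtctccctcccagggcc
Lrrn4, chr2:132880863-132881112, minus strand: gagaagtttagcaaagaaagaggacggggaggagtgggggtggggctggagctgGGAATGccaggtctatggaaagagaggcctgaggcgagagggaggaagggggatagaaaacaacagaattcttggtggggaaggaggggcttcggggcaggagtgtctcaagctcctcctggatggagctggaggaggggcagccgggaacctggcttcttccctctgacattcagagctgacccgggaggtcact
Gpm6a, chr8:54779184-54779433, plus strand: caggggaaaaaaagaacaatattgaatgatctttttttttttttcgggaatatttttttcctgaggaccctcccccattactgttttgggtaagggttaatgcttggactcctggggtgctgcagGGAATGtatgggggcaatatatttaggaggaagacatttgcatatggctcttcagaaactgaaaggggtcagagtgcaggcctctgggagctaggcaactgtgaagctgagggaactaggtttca
Bnc1, chr7:81992300-81992549, minus strand: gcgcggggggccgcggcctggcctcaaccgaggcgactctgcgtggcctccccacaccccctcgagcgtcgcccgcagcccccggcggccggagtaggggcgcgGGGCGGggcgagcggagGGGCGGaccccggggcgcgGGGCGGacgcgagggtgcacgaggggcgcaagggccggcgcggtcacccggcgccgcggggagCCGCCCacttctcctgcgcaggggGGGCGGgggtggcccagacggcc
GGAATG or its reverse complement occurred once in each of the windows of Upk3b, Lrrn4 and Gpm6a shown, and in 3 of the 6 windows of listed genes in all. It did not occur in that of Bnc1, in that of Muc16 or in that of another Gpm6a start (chr8:54954478-54954727), both not shown. Of all 32851 RefSeq windows of this length 12.6% held it. GGGCGG was found at 5 places in the Bnc1 window, whose GC content was 83.6%, against 60.8% for Upk3b, and 32.7% of all windows held it. Neither AGATAA, the motif of GATA factors (9.99% of all windows), nor GCGTGGGNG, a motif shared by WT1 and EGR factors (1.65% of all windows), was found in the windows of the listed genes. No 2 matches overlapped. These matches describe the letters of the windows and are not shown to be bound.

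The comparison of g with sc samples asked which genes differ between the depots. Mesothelial genes were higher in g in both genotypes, and Upk3b had the highest difference of all 19505 genes in either. In wild-type samples 8 of the 9 measured genes were higher in g and none was lower (limma, Benjamini-Hochberg adjusted p under 0.05, which is what called means here); of all genes 9.3% were called higher in g and 8.48% lower. In knockout samples all 9 were called higher, against 2.87% of all genes (1.27% were lower). Both comparisons come from the same fit and share its residual spread, though they have no array in common. Over the 9 genes the median difference reached 1.74 for the wild type and 2.51 for the knockout, and over all genes it was -0.04 and -0.02. In both genotypes Upk3b, Upk1b, Pkhd1l1, Gpm6a and Nkain4 had the 5 highest differences of the list and Bnc1 the lowest.

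**Figure D1:**
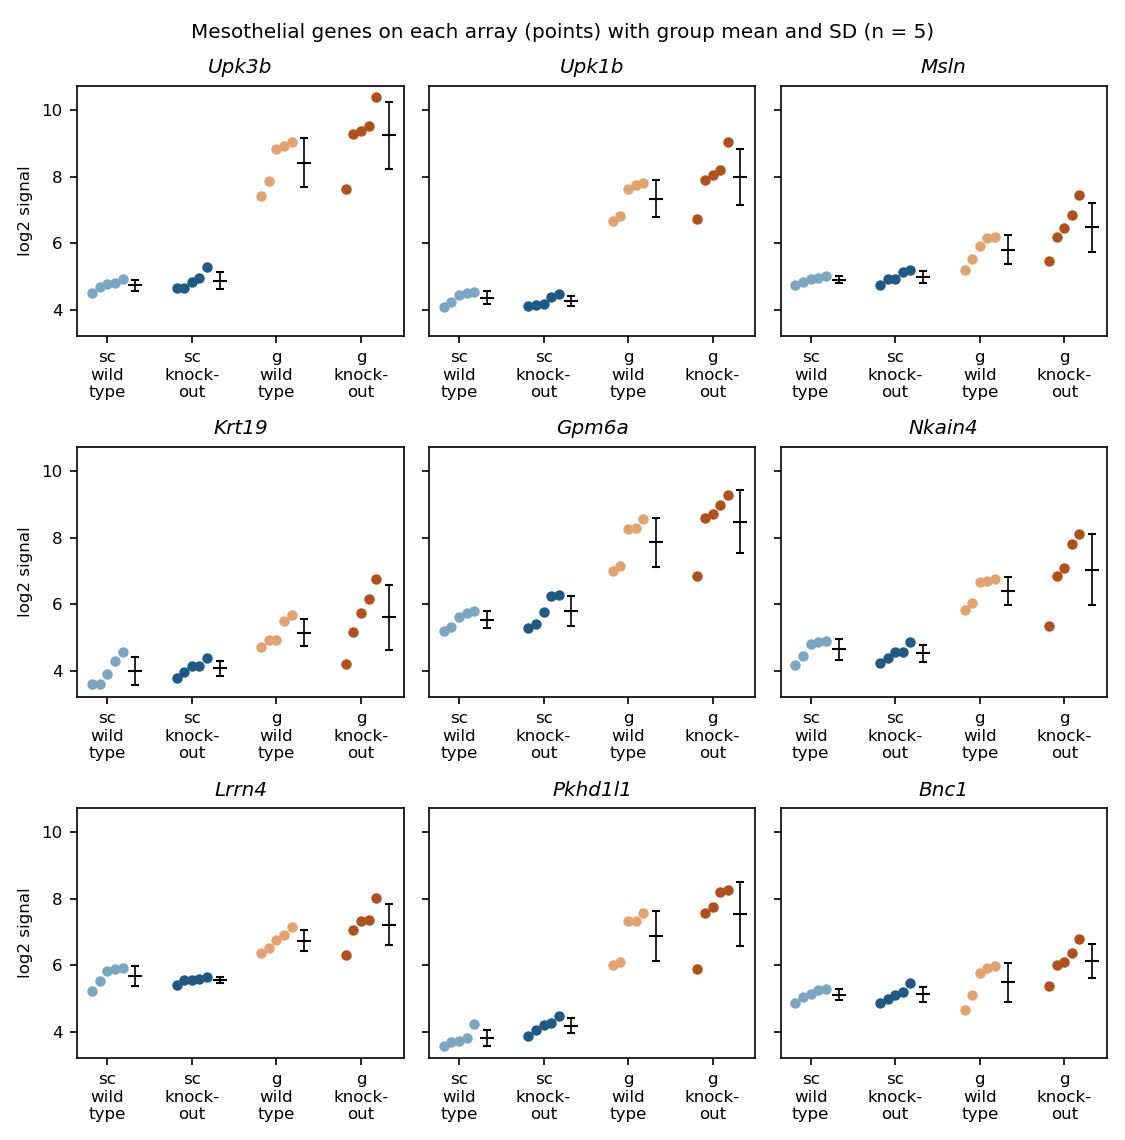
Log2 signal of each of the 9 mesothelial genes on each of the 20 arrays (points, sorted within a group), with the mean and SD of each group of 5 in black. The g arrays lie higher and spread more widely than the sc arrays for most genes, while those of Bnc1 and of knockout Krt19 overlap between depots; for Upk3b the sc arrays reach 5.29 and the g arrays start at 7.43.

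Among the membrane proteins shared with urothelium, Upk3b was 4.51, 4.71, 4.80, 4.95 and 4.79 on the wild-type sc arrays sc286WT, sc287WT, sc307WT, sc308WT and sc309WT and 5.29, 4.97, 4.66, 4.85 and 4.68 on the knockout sc arrays sc300KO, sc306KO, sc317KO, sc318KO and sc320KO. On the g arrays of the same numbers it was 7.86, 9.05, 7.43, 8.92 and 8.82 in wild-type and 7.63, 9.36, 10.4, 9.26 and 9.53 in knockout samples. All g arrays lay above all sc arrays, and within g the arrays g286 WT, g307 WT and g300 KO stood below the rest. The difference between depots was 3.67 in wild-type (SE 0.36, 12.7-fold, n = 5 per group, limma adjusted p = 1.58e-06) and 4.34 in knockout samples (SE 0.36, 20.3-fold, adjusted p = 4.98e-07).

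Upk1b, a tetraspanin that partners uroplakin III proteins, was 4.52, 4.24, 4.10, 4.46 and 4.56 on the wild-type and 4.19, 4.17, 4.49, 4.38 and 4.14 on the knockout sc arrays, in the same order. On the g arrays it was 6.83, 7.76, 6.67, 7.81 and 7.64 in wild-type and 6.73, 8.06, 9.05, 7.91 and 8.21 in knockout samples. Again no g array reached down to the sc arrays, and the same 3 g arrays were the lowest. The depot difference was 2.97 in wild-type (SE 0.30, 7.81-fold, adjusted p = 1.63e-06) and 3.72 in knockout samples (SE 0.30, 13.1-fold, adjusted p = 3.08e-07). The difference ranked 4 of 19505 in wild-type and 2 in knockout samples.

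Pkhd1l1, a large receptor-like membrane protein related to fibrocystin, was 3.60 to 4.24 on wild-type and 3.89 to 4.49 on knockout sc arrays. On g286 WT, g287 WT, g307 WT, g308 WT and g309 WT it was 6.10, 7.34, 6.01, 7.58 and 7.34, and on the knockout g arrays, in ascending order of their numbers, 5.89, 7.58, 8.26, 7.75 and 8.19. The groups did not overlap between depots. Its differences of 3.05 (SE 0.36, adjusted p = 8.48e-06) and 3.34 (SE 0.36, adjusted p = 1.49e-05) ranked 3 of 19505 in both genotypes.

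Gpm6a, a membrane glycoprotein best known from neurons, was between 5.21 and 5.80 on wild-type and between 5.30 and 6.27 on knockout sc arrays, and 7.14, 8.29, 7.01, 8.57 and 8.26 on wild-type and 6.85, 8.59, 9.26, 8.70 and 8.97 on knockout g arrays. Its depot difference was 2.31 in wild-type (SE 0.37, adjusted p = 0.000181) and 2.67 in knockout samples (SE 0.37, adjusted p = 0.000214). Nkain4, a membrane protein that interacts with the sodium pump, averaged 4.66 ± 0.32 on wild-type and 4.53 ± 0.24 on knockout sc arrays, and 6.40 ± 0.43 on wild-type and 7.04 ± 1.07 on knockout g arrays (SD, n = 5). Its depot difference was 1.74 (SE 0.35, adjusted p = 0.00146) and 2.51 (SE 0.35, adjusted p = 0.000219). The g and sc arrays of either genotype did not overlap for these genes.

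Lrrn4, a leucine-rich repeat membrane protein, was 1.06 higher in g in wild-type (SE 0.22, adjusted p = 0.00184) and 1.65 higher in knockout samples (SE 0.22, adjusted p = 0.000145). Msln was 4.91 ± 0.10 in wild-type sc and 5.81 ± 0.43 in wild-type g samples, a difference of 0.90 (SE 0.26, adjusted p = 0.0182). In knockout samples it was 4.99 ± 0.18 in sc and 6.48 ± 0.74 in g, a difference of 1.49 (SE 0.26, adjusted p = 0.00155). For Lrrn4 and Msln too every g array lay above every sc array of its genotype.

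Krt19, a keratin of simple epithelia, differed by 1.14 in wild-type (SE 0.33, adjusted p = 0.0209) and 1.52 in knockout samples (SE 0.33, adjusted p = 0.011). Its lowest knockout g array, g300 KO at 4.22, lay below the highest knockout sc array, sc306KO at 4.39. The wild-type call of Krt19 was lost without sc307WT or without g308 WT, and those of Krt19 and Msln without the 4 arrays high in lymphocyte or muscle genes. The knockout call of Krt19 was lost when only the 2 groups compared entered the fit. Bnc1, the zinc finger transcription factor basonuclin 1 and the only transcription factor of the list, was not called in wild-type samples (0.37, SE 0.24, 95% interval -0.13 to 0.87, adjusted p = 0.327). In knockout samples it was 0.998 higher in g (SE 0.24, adjusted p = 0.02), with overlapping arrays, and this call was lost without sc300KO, without g317 KO, or with the hepatocyte mean as a covariate (0.81, adjusted p = 0.0675).

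**Figure D2:**
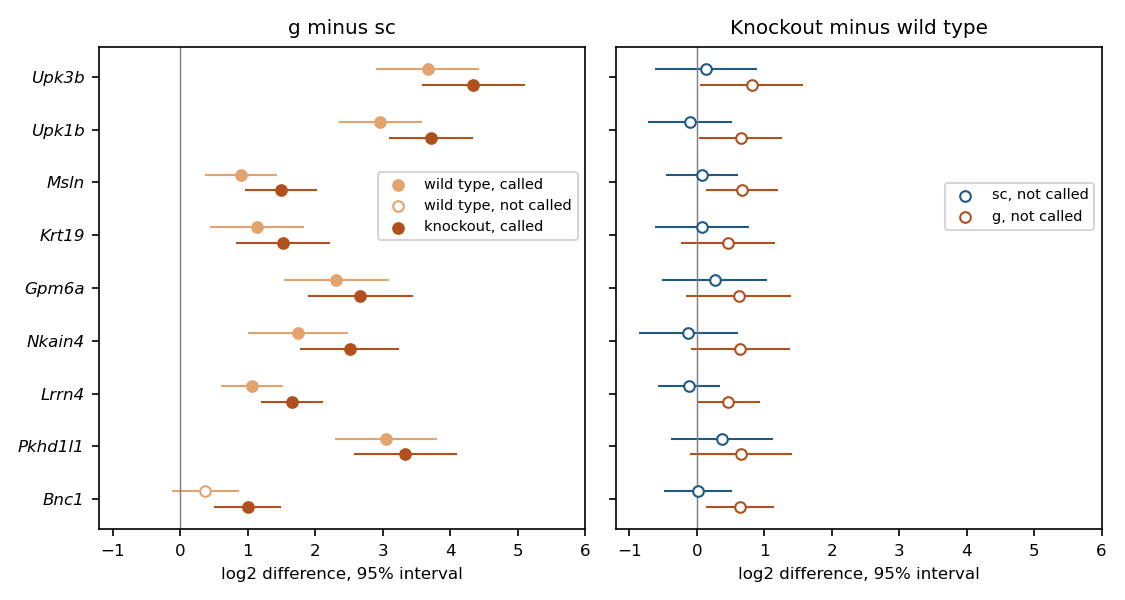
Log2 differences of the 9 mesothelial genes with 95% confidence intervals, for g minus sc in wild-type and knockout samples (left) and for knockout minus wild type in sc and g samples (right); filled points passed an adjusted p of 0.05. The depot differences run from 0.37 for Bnc1 to 4.34 for Upk3b, and no knockout effect was called.

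The g arrays of a genotype lay wholly above its sc arrays for 8 of the 9 genes in wild-type and for 7 in knockout samples, against 8.73% and 2.31% of all genes. In sc every listed gene was below the 90th percentile of the negative control probes (6.37 to 6.76 over the arrays) on all 10 arrays. Upk1b and Pkhd1l1 were below even the median of those probes on all 10 sc arrays. In g, Upk3b and Gpm6a were above that percentile on all 10 arrays and Upk1b on 9, whereas Msln passed it on 3, Krt19 and Bnc1 on 1 each. Since the sc levels lie in the range of the control probes, the folds give ratios of signal and no exact ratio of transcripts. In such bulk samples fewer mesothelial cells and less RNA per cell cannot be told apart.

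The listed genes varied together over the g arrays. After the mean of each group was removed, the 36 pairs of listed genes had a median Pearson r of 0.89 over the 10 g arrays (range 0.72 to 0.997, median Spearman rho 0.83), where the median r between a listed gene and any other gene was -0.03. Over the 10 sc arrays, where the signals lay in the range of the control probes, the median r was 0.08 (range -0.65 to 0.79, median rho 0.04). These values describe 10 arrays each, whose points share array, depot and normalization. Upk3b and Upk1b tracked the mean of the other 8 genes in g most closely (r = 0.99 for each), and Bnc1 least (r = 0.79). All 9 genes were highest on g317 KO. On g300 KO and on g307 WT all 9 were among the 3 lowest of the 10 g arrays, and on g286 WT 8 of 9 were, the exception being Bnc1, which was lower on g309 WT (5.11).

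**Figure D3:**
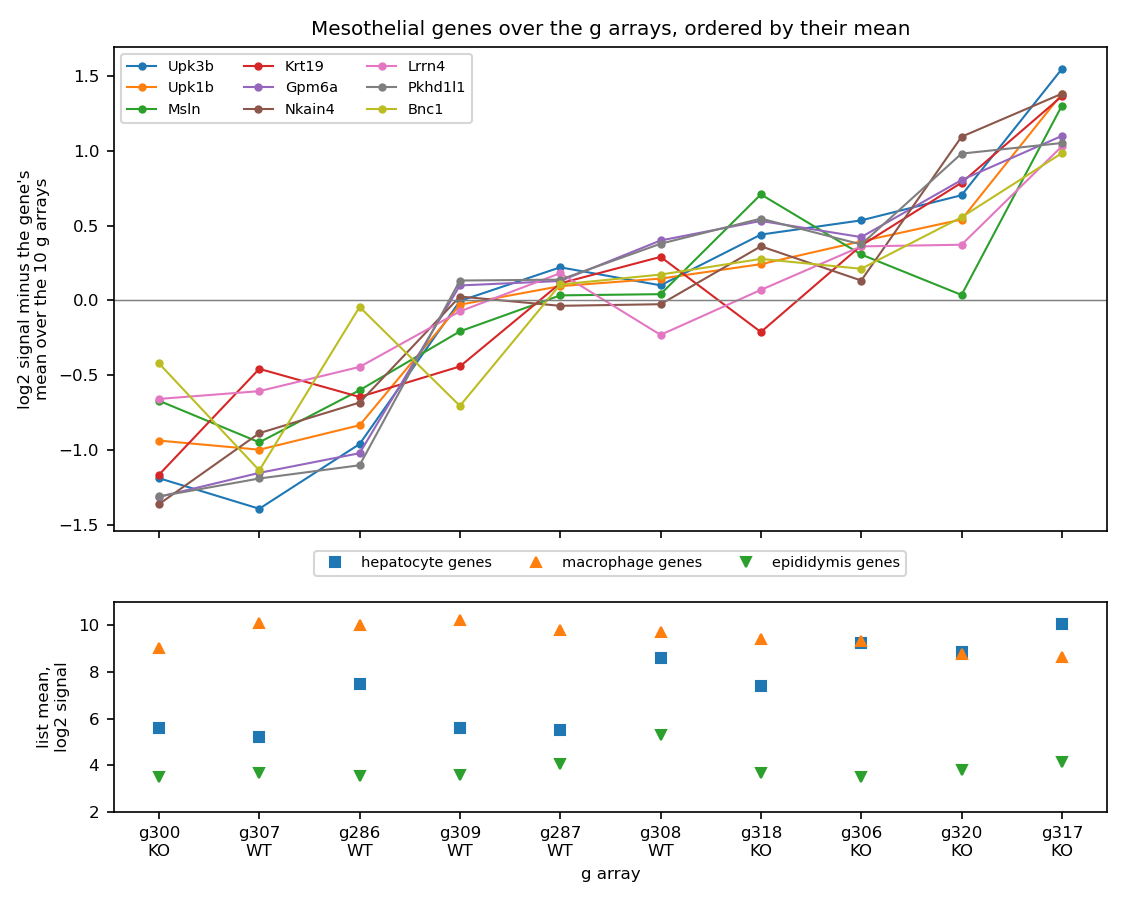
Upper panel, log2 signal of each mesothelial gene on the 10 g arrays minus that gene's own mean over these arrays, with arrays ordered by the mean of the 9 genes (5.99 on g300 KO to 8.23 on g317 KO); lower panel, the mean log2 signal of the hepatocyte, macrophage and epididymis gene lists on the same arrays. The 9 lines run close together across both genotypes, and the 3 arrays on the left, of both genotypes, lie below the others.

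The spread of the listed genes within a group was wide in g. The SD over the 5 arrays was between 0.31 and 0.75 in wild-type g and between 0.51 and 1.07 in knockout g samples, where the median SD of all genes was 0.17 and 0.21. It exceeded that of 95% of genes for 8 of the 9 listed genes in wild-type g and for all 9 in knockout g samples. In sc, where the signals lay in the range of the control probes, this held for 1 in wild-type and 0 in knockout samples.

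The knockout comparison asked whether loss of Olfm2 changes gene expression within a depot. In sc no mesothelial gene was called (0 of 9 higher, 0.297% of all genes, and 0 of 9 lower, 0.379% of all genes). An unadjusted p under 0.05 in limma was found for 0 of 9, against 2017 of all 19505 genes. The differences ran from -0.12 for Nkain4 to 0.37 for Pkhd1l1 with a median of 0.08, against 0.01 over all genes. For Upk3b the difference was 0.14 (SE 0.36, 95% interval -0.62 to 0.90, adjusted p = 0.945).

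In g all 9 genes had higher means in knockout than in wild-type samples, as did 10407 of all 19505 genes. Limma called none of the 9 (of all genes 5.01% were higher and 6.27% lower). In the fit of all 4 groups an unadjusted p under 0.05 in limma was found for 5 of the 9, against 4702 of all 19505 genes. It was found for 1 when only the g groups entered the fit, and for 1 with array weights. The other probe rule, the dim-gene filter, either other normalization and the block left it at 5. The fit of all groups shares its variance with sc, where the listed genes mostly spread less. Their median SD was 0.24 in wild-type and 0.23 in knockout sc samples, against 0.55 and 0.94 in g. The differences ran from 0.46 for Krt19 to 0.81 for Upk3b with a median of 0.64, against 0.02 over all genes. Bnc1 had the smallest p (0.64, SE 0.24, 95% interval 0.14 to 1.14, adjusted p = 0.0927), followed by Msln (0.67, SE 0.26, adjusted p = 0.1). Upk3b differed by 0.81 (SE 0.36, 95% interval 0.05 to 1.58, adjusted p = 0.173). The arrays of the genotypes overlapped for every listed gene, while 4.68% of all genes had every knockout array above every wild-type one.

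The size of this difference depended on single arrays, and its median over the 9 genes was 0.45 with array weights. Without g307 WT or without g317 KO, 0 of 9 genes had an unadjusted p under 0.05 in limma, none was called, and the median difference was 0.44 and 0.42. On g300 KO the listed genes averaged 5.99, while on the other 4 knockout g arrays they averaged between 7.32 and 8.23 and on the wild-type ones between 6.01 and 7.13. Without g300 KO 8 of the 9 genes were called higher in knockout g samples, where 4.93% of all genes were, the exception being Krt19 (adjusted p = 0.0629). Upk3b was then 9.63 ± 0.51 (SD, n = 4) in knockout g samples and differed by 1.21 (SE 0.28, adjusted p = 0.00927), Nkain4 by 1.06 (SE 0.25, adjusted p = 0.00903) and Gpm6a by 1.02 (SE 0.29, adjusted p = 0.0297). The labels give no ground to leave this array out.

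The knockout effect was larger in g than in sc by 0.29 (Pkhd1l1) to 0.77 (Nkain4) for the listed genes, but limma called 0 of 9 for this difference (of all genes 0.041% were called higher and 0.0359% lower). The unadjusted p in limma was under 0.05 for 0 of 9, against 2537 of all 19505 genes. For Upk1b the difference between the depots' effects was 0.75 (SE 0.42, 95% interval -0.13 to 1.63, adjusted p = 0.462).

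Transcripts of other tissues moved with part of these values. The hepatocyte mean was 7.48, 5.50, 5.19, 8.58 and 5.61 on g286 WT, g287 WT, g307 WT, g308 WT and g309 WT and 5.59, 9.25, 10.0, 7.41 and 8.88 on the knockout g arrays from g300 KO to g320 KO. It was highest on g317 KO, as the mesothelial genes were, and low on g300 KO and g307 WT, but also low on g287 WT and g309 WT, where the mesothelial genes averaged 7.10 and 6.86. With the hepatocyte mean as a covariate Upk3b differed between depots by 3.38 in wild-type (SE 0.31, adjusted p = 1.04e-06) and 3.96 in knockout samples (SE 0.32, adjusted p = 5.32e-07), and 8 of 9 genes were called higher in g in either genotype, against 9.73% of all genes in wild-type and 2.6% in knockout samples. The median knockout effect in g was 0.31 with this covariate, in place of 0.64, and Upk3b differed by 0.37 (SE 0.33, limma adjusted p = 0.63). The hepatocyte mean itself averaged 6.47 in wild-type and 8.23 in knockout g samples, so this fit cannot fully separate it from genotype. The part of hepatocyte genes in the mesothelial values was not tested. Without the 8 hepatocyte-high arrays, 8 of 9 genes were called higher in wild-type g samples, where 7.57% of all genes were. In knockout samples the only g array left was g300 KO, assumed to vary like the other groups, and Upk3b (2.87, adjusted p = 0.0152) and Upk1b (2.46, adjusted p = 0.009) were called between depots, against 0.523% of all genes. That single array lay below the 3 wild-type g arrays left for 8 of the 9 genes on average, with Upk3b at -0.80, so the knockout effect in g turned there.

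Other cell types that such samples could hold were followed through their own genes. The mean of 13 macrophage genes lay between 9.71 and 10.2 on wild-type g, between 8.63 and 9.41 on knockout g and between 7.95 and 8.64 on sc arrays, so it was higher in g but, unlike the mesothelial mean, lower in knockout than in wild-type g samples. Of the 13 genes 12 were called higher in g in wild-type and 10 in knockout samples, against 9.3% and 2.87% of all genes. With the knockout in g, 12 fell and 1 rose, against 6.27% and 5.01% of all genes. The part of macrophage genes in the mesothelial values was not tested. Of 9 genes of general epithelium 0 were called between depots in either genotype. Of all genes 9.3% were higher and 8.48% lower in g in wild-type samples, and 2.87% and 1.27% in knockout samples. The basal keratin Krt14 rose with the knockout in g (0.41, limma adjusted p = 0.0444), where 5.01% of all genes rose. The mean of the 9 epithelium genes was between 4.51 and 5.21 on g and between 4.61 and 4.87 on sc arrays. Epcam, a surface protein of most epithelia but not of mesothelium, was 6.61 on g308 WT, 6.11 on g320 KO and between 4.13 and 5.11 on the other g arrays. The mean of 6 epididymis genes was 5.30 on g308 WT, with Gpx5, a secreted peroxidase of the epididymis, at 6.63, and between 3.50 and 4.14 on the other g arrays. Lcn8, Lcn9, Adam7 and Cst11 were also highest on g308 WT, whereas Lcn5 was 3.11 there, 5.26 on g287 WT and 4.64 on g317 KO, and Adam7 was above 4 on g307 WT, g317 KO and g320 KO too. The list mean was between 3.53 and 3.82 on sc arrays. The mean of 7 ovary and oviduct genes was between 5.44 and 5.82 on all 20 arrays. Endothelial means were between 8.02 and 9.19 on all arrays. The mean of 10 fibroblast genes was between 8.85 and 9.09 on wild-type g and between 8.47 and 8.83 on knockout g arrays, which did not overlap, and between 8.62 and 9.20 on sc arrays. The mean of 14 adipocyte genes was between 10.8 and 11.2 on wild-type g and between 11.3 and 11.6 on knockout g arrays, again without overlap, and between 11.3 and 11.7 on sc arrays. Of the adipocyte genes 12 were called lower in g than in sc in wild-type and 0 in knockout samples, against 8.48% and 1.27% of all genes. With the knockout in g 8 rose, against 5.01% of all genes. The part of fibroblast and adipocyte genes in the mesothelial values was not tested. Without g308 WT, the array with the highest epididymis mean, the wild-type depot count was 7 of 9.

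A second list held 16 further genes known from mesothelium, of which 14 had a probe. In wild-type samples 6 of the 14 were higher in g and 1 was lower, against 9.3% and 8.48% of all genes. In knockout samples 8 were higher and 0 lower, against 2.87% and 1.27% of all genes. The median difference was 0.49 and 0.74, smaller than that of the first list. Higher in g in both genotypes were the transcription factor Wt1 (1.73, SE 0.19, adjusted p = 3.62e-06 in wild-type, and 1.35 in knockout samples), the retinoic acid synthesis enzyme Aldh1a2 (1.78, SE 0.17, adjusted p = 1.23e-06, and 1.77), the surface mucoprotein podoplanin, Pdpn (0.98 and 1.08), the WNT agonist Rspo1 (1.02 and 1.49), the lubricant proteoglycan Prg4 (1.11 and 1.35) and the keratin Krt7 (0.70 and 1.23). Krt8 (0.73, adjusted p = 0.0468) and the transcription factor Gata6 (0.53, adjusted p = 0.0309) were called in knockout samples. The tight junction protein Cldn15 was lower in g in wild-type samples (-0.78, adjusted p = 0.007). Calb2, the calretinin gene used to stain human mesothelium, differed by -0.04 and 0.15 (adjusted p = 0.92 and 0.702).

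In the knockout comparison in g, 1 of these 14 genes rose, the retinaldehyde dehydrogenase Aldh1a1 (0.64, SE 0.17, adjusted p = 0.0184), and none fell. Of all genes 5.01% rose and 6.27% fell. Krt7, Gata6 and Krt8 differed by 0.50, 0.31 and 0.42 (adjusted p = 0.15, 0.161 and 0.212). Wt1 differed by 0.03 (SE 0.19, 95% interval -0.37 to 0.42, adjusted p = 0.959) and Aldh1a2 by -0.09 (adjusted p = 0.82). In sc 0 of 14 were called by limma (of all genes 0.297% rose and 0.379% fell). An unadjusted p under 0.05 was found for 4 of the 14, against 2017 of all 19505 genes. The smallest adjusted p was that of Aldh1a1 (0.55, adjusted p = 0.18), followed by Prg4 (-0.67, adjusted p = 0.291) and Pdpn (-0.26, adjusted p = 0.439).

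Of 11 genes of desmosomes, adherens and tight junctions 0 were higher in g in either genotype, against 9.3% of all genes in wild-type and 2.87% in knockout samples. The tight junction scaffold Tjp1 was lower in wild-type g samples (-0.56, adjusted p = 0.00464), where 8.48% of all genes were. Plakoglobin, Jup, was the 1 of the 11 that rose with the knockout in g (0.98, SE 0.17, adjusted p = 0.0011), where 5.01% of all genes rose. Plakophilin 2, Pkp2, whose name stands beside sc in the design text of the series, differed by -0.05 between genotypes in sc (SE 0.21, adjusted p = 0.969) and by 0.60 in g (SE 0.21, adjusted p = 0.0682).

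Family relatives of the listed genes were followed too. Of 15 measured relatives 2 were higher in wild-type g samples, where 9.3% of all genes were. These were the proteolipid family member Gpm6b (1.11, SE 0.14, adjusted p = 1.23e-05) and the leucine-rich repeat gene Lrrn1 (0.85, adjusted p = 0.00436). In knockout samples 0 were higher and 1 was lower, Lrrn3 (-0.50, adjusted p = 0.0446), against 2.87% and 1.27% of all genes. The uroplakins of the bladder plaque, Upk1a, Upk2 and Upk3a, and Upk3bl differed between depots by -0.24 to 0.07 over both genotypes, with none called. With the knockout in g, Gpm6b fell (-0.79, SE 0.14, adjusted p = 0.000917), while Bnc2, the relative of Bnc1 (0.59, SE 0.15, adjusted p = 0.0149), and Nkain2 (0.57, SE 0.18, adjusted p = 0.0453) rose. Of all genes 6.27% fell and 5.01% rose there.

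**Figure D4:**
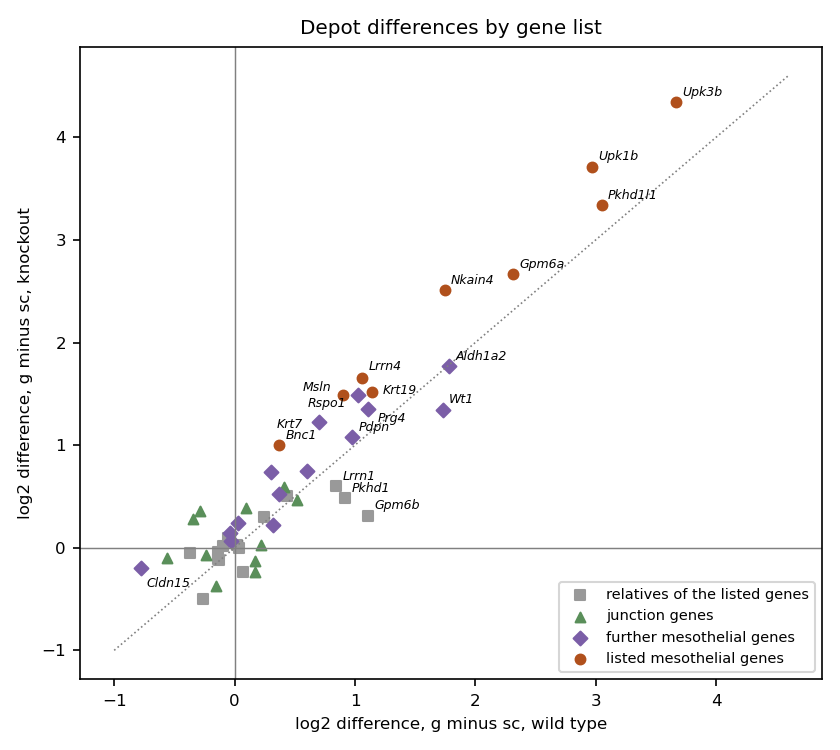
Log2 difference g minus sc in wild-type (horizontal) against knockout samples (vertical) for the 9 listed mesothelial genes, 14 further mesothelial genes, 11 junction genes and 15 relatives; the dotted line marks equal differences. Upk3b, Upk1b, Pkhd1l1, Gpm6a and Nkain4 lie farthest to the upper right, and the junction genes lie between -0.56 and 0.59 on either axis.

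The 10 genes outside the list whose residuals over the 20 arrays were most like the mean of the listed ones, by Pearson r after group means were removed, were Lgals2 (0.88), Gata5 (0.87), Ano1 (0.86), Krt7 (0.86), Rspo1 (0.85), Cybrd1 (0.83), Rdh19 (0.83), C8b (0.81), Ildr2 (0.80) and Igfbp2 (0.80). Lgals2 encodes a galectin, Gata5 a transcription factor, Ano1 a calcium-activated chloride channel and Cybrd1 a ferric reductase, while C8b encodes a complement protein made in liver. Spearman's rho for these genes ran from 0.44 (Igfbp2) to 0.82 (Rspo1). Over the 12 arrays without a hepatocyte mean above 7, r was 0.86 for Gata5, 0.84 for Rdh19, 0.83 for Krt7, 0.81 for Cybrd1 and 0.78 for Rspo1, and lower for the others, down to 0.42 for Igfbp2. The choice did not use the depot difference itself. The mean it was matched to varied more in g (SD 0.50 in wild-type and 0.82 in knockout samples) than in sc (0.13 and 0.06). The choice thus favours genes that vary in g, and the depot counts of these genes are no independent check. Rspo1 and Krt7 were already in the second list above. In wild-type samples 5 of the 10 were called higher in g, against 9.3% of all genes: Rspo1, Lgals2 (0.95, SE 0.28, adjusted p = 0.0234), Ildr2 (0.93, SE 0.20, adjusted p = 0.00274), Cybrd1 (0.78, SE 0.24, adjusted p = 0.0272) and Krt7. In knockout samples 5 were called higher in g, against 2.87% of all genes: Rspo1, Krt7, Lgals2 (1.36, SE 0.28, adjusted p = 0.00752), Ano1 (0.91, SE 0.19, adjusted p = 0.00706) and Ildr2 (0.83, SE 0.20, adjusted p = 0.0213). Ano1 also rose with the knockout in g (0.63, SE 0.19, adjusted p = 0.0343).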

How the data were processed

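Per the submitters' processing notes the authors processed the arrays with RMA and limma, which leaves each deposited value on the log2 scale; the sources used here give no versions and do not say whether all arrays were normalised together. Of 28846 probes 6640 control probes were left out. Of the rest 19572 carry 1 gene symbol and 2634 carry none here. Where several probes shared a symbol (55 genes) that of highest mean signal was kept, which left 19505 genes.

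All genes were fitted in R 4.3.3 with limma 3.58.1, with 4 group means, no covariate and 16 residual degrees of freedom; the script was tested on simulated data. Of 5 comparisons each gene has a moderated two-sided p, adjusted by Benjamini-Hochberg over all genes; SE is the moderated one. The number of arrays limits the precision. Alternatives changed the probe rule, dim-gene filter, normalization, variance model, array weights, samples, block and covariate.

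The listed genes, the other lists and the rules were chosen with earlier results of these data known. Named were all listed genes, of the 3 related lists the called members and the 3 with the smallest p in a comparison (the latter printed for further mesothelial genes in the knockout comparisons only), and the 10 genes most alike in residuals, Gm and Rik names passed over; defining genes of other cell types were named too, and Calb2, Upk1a, Upk2, Upk3a, Upk3bl, Pkp2 and uncalled values of Krt8, Wt1 and Aldh1a2 after their values were seen.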

Additional observations from a re-analysis of the deposited data

Results flagged for a closer look

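Of 192 sets of 5 arrays examined, 12 held an array whose gap to the next one took more than 0.71 of the whole range (Dixon's 95% critical value); chance flags about 1 in 20. Among the listed genes these were Gpm6a (6.85 against 8.59 on the next array) and Pkhd1l1 (5.89 against 7.58), both low on g300 KO. Pdpn was low on the same array (7.65 against 8.12). On g317 KO Lrrn1 was low, at 4.77 against 5.46. On g308 WT the epididymis list mean was high, at 5.30 against 4.05. On sc300KO Rdh19 was high (4.77 against 4.52) and so was Wt1 (5.30 against 5.17). Bnc2 was low on sc320KO (7.82 against 8.08), Lgals2 was low on sc307WT (4.08 against 4.53), and the epithelium list mean was high on sc308WT (4.87 against 4.72). On sc286WT the lymphocyte list mean was high (8.14 against 5.57) and the adipocyte list mean low (11.3 against 11.6).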

How the results depend on the processing

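Between depots the counts of called mesothelial genes stayed at 6 to 8 of 9 in wild-type and, but for the fit without the hepatocyte-high arrays, at 8 or 9 in knockout samples. Leaving out 1 array at a time gave 7 to 8 and 8 to 9. Without the hepatocyte-high arrays 2 were called in knockout samples, a setting with fewer samples (1 knockout g array); Krt19 was then at -0.013. In the knockout comparison in g, leaving out 1 array gave 0 to 8 called, with 8 only without g300 KO, and all other settings gave 0. Without the hepatocyte-high arrays, 8 of the 9 knockout effects in g turned negative: Upk3b -0.80, Upk1b -0.63, Msln -0.30, Krt19 -0.90, Gpm6a -1.01, Nkain4 -1.06, Lrrn4 -0.49 and Pkhd1l1 -1.0, none called. Their differences between depots turned as well, to -0.81, -0.52, -0.38, -1.12, -1.44, -0.97, -0.35 and -1.33 in the same order. Only g300 KO, the lowest knockout array, remains there. In sc, uncalled knockout effects changed sign: with the hepatocyte covariate Upk3b -0.22, Msln -0.081, Krt19 -0.17 and Bnc1 -0.16; without the lymphocyte-high and muscle-high arrays Krt19 -0.22, Gpm6a -0.079 and Bnc1 -0.057; with array weights Bnc1 -0.032; and leaving out 1 array moved Krt19 between -0.018 and 0.22 and Bnc1 between -0.070 and 0.079. The cause was not tested.

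Title numbers recur across groups, and residuals of same-numbered arrays correlated between -0.46 and 0.14 (median 0.01). Whether a number marks a mouse is not stated, so a shared origin of same-numbered arrays is unresolved. With that number as a replicate block the depot counts were 8 and 9 and the counts of the other comparisons 0, as without it. Listed genes near the control probes in sc limit how exactly a fold can be given.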
